A study of Mus musculus with 12 samples.

Results

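The cytosolic ribosomal protein genes were examined in mouse hippocampal tissue after fecal microbiota transplantation. Members were chosen by gene symbol alone: Rpl or Rps followed by a number, with or without a final a or x, plus Rpsa and the stalk genes Rplp0, Rplp1 and Rplp2. The rule took 76 of the 27978 genes measured, 46 of the large and 30 of the small subunit, and left out pseudogenes and the Rps6k kinases. RNA-seq was performed on total RNA in 3 groups of 4 libraries, FMT-CON, FMT-DSS and FMT-SP. All 3 groups had received a transplant, and no untransplanted mice were among the samples. FMT-SP is written FMT-DSS+SP in the series design, where SP is the neuropeptide substance P by the title. The labels do not spell out CON or DSS, and do not state the strain, age or sex of the mice, the step at which substance P was given, or whether each library came from 1 animal, so the p-values measure only the spread between these libraries.

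Ribosomal proteins assemble with ribosomal RNA into the large and small subunits of the cytosolic ribosome, which translates nuclear-encoded mRNA. Each protein is needed in the same number as nearly all of the others, and their mRNAs are among the most abundant and most evenly controlled of a cell. In neurons they are also transported into dendrites and axons, and their translation is controlled as a group through mTORC1 by a run of pyrimidines at the start of the mRNA.

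Because that pyrimidine run is encoded at the transcription start, the promoters of 6 members are shown here, each from 40 bases before to 15 bases after the annotated start. They were picked, after the values were seen, from members described in the following paragraphs. Only promoters with such a run near the start were eligible, and where a gene had several, the choice went by run length. Capitals mark every run of a C followed by at least 7 consecutive pyrimidines (C or T) on the transcribed strand. The sequences are RefSeq's for GRCm38.p6, written 5′ to 3′ on the strand of the gene.
Rps10 (chr17:27635230-27635284, minus strand): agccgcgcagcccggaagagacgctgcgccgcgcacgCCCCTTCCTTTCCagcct
Rpl35 (chr2:39005117-39005171, minus strand): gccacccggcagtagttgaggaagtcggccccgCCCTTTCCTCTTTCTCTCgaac
Rps27 (chr3:90213634-90213688, minus strand): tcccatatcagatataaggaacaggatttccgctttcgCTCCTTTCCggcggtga
Rpl34 (chr3:130730323-130730377, minus strand): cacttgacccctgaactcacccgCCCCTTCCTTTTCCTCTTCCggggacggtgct
Rplp2 (chr7:141447611-141447665, plus strand): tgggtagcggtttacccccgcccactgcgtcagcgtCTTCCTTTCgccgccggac
Rps15a (chr7:118116133-118116187, minus strand): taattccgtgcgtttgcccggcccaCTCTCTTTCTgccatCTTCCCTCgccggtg

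Of the 76 members, 56 had a promoter in the RefSeq table, with 66 windows of 250 bases before to 50 after a start. A pyrimidine run of this kind lay between 25 bases before and 25 after a start in 30 of the 56 genes (53.6%), against 4770 of all 27025 genes in the table (17.7%). The heptamer CCGGAAG, the core bound by ETS-family transcription factors, was found on either strand of the 300-base window in 23 members (41.1%) and in 9.93% of all genes. TATAAA, the TATA box, was found on either strand in 6 members (10.7%) and in 15.7% of all genes. The capital runs differ in length from 8 bases in the shorter of the 2 in Rps15a to 20 in Rpl34. These are matches of letters in fixed windows. The 3 patterns were chosen after several had been looked at.

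All 76 members were well above the filter of a mean of 1 FPKM (mapped fragments per kilobase and per 1000000 in the library) over the 12 libraries, which kept 12559 genes for testing. Their means ran from 28.5 to 1088 FPKM with a median of 243 FPKM, where the median of all tested genes was 7.93 FPKM. Of the 76, 17 ranked among the 100 highest tested genes and 72 among the highest 1000. The 5 highest members held 19.6% of the summed level of the 76.

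The 5 highest members were Rplp1 at 1088, Rpl41 at 923, Rps15 at 713, Rps29 at 705 and Rpl26 at 534 FPKM. Rplp1 encodes an acidic protein of the stalk that recruits elongation factors, and Rpl41 encodes the smallest protein of the ribosome. The 5 lowest were Rps15a at 28.5, Rps20 at 31.1, Rpl21 at 40.7, Rpl22 at 43.0 and Rpl34 at 56.5 FPKM. Rps15a and Rps20 also had the longest annotated main transcripts of all members, at 5130 and 3706 bases, and FPKM divides by a length that is not given in the sources used here. Ribosomal protein genes have many near-identical pseudogenes, and how reads shared with them were counted is not given either, so the order of levels among members is uncertain.

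Summed over the 76 genes, FMT-CON 1 to 4 held 19127, 18596, 23156 and 22740 FPKM. FMT-DSS 1 to 4 held 16853, 19319, 21416 and 23154 FPKM. FMT-SP 1 to 4 held 18542, 17048, 19531 and 22657 FPKM. Each group had both low and high libraries, and the 3 ranges overlapped almost completely. The group sums were 20905 ± 2375 in FMT-CON, 20185 ± 2719 in FMT-DSS and 19444 ± 2373 FPKM in FMT-SP (SD, n = 4 each), so the largest difference between groups was smaller than 1 SD within a group. Members took 4.95% to 6.02% of a library's FPKM. In bulk tissue, fewer cells rich in these mRNAs and less of the mRNA per cell cannot be told apart.

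**Figure D1:**
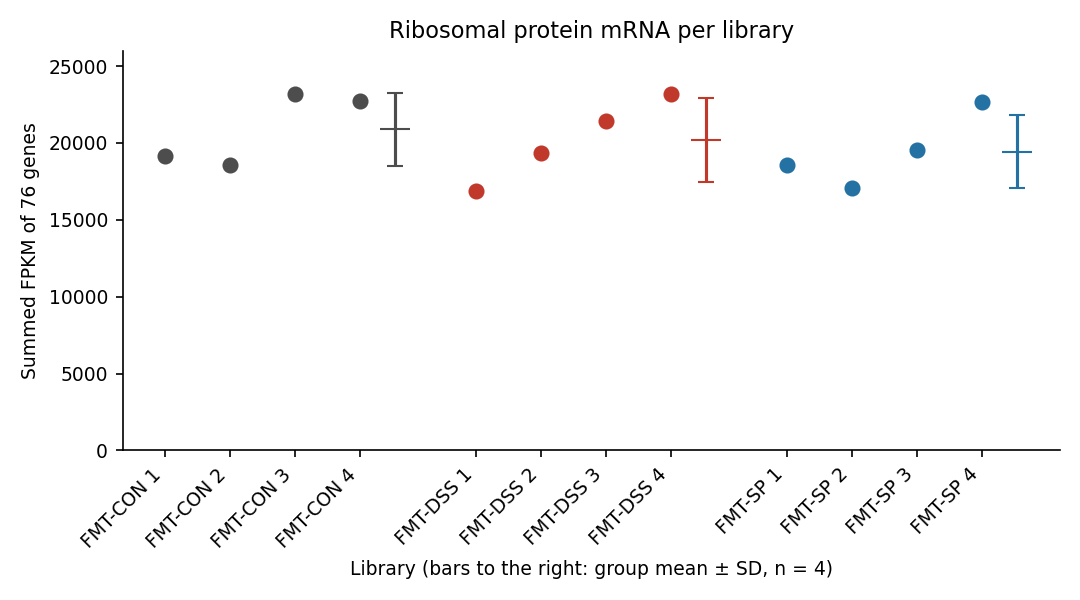
Summed FPKM of the 76 ribosomal protein genes (vertical axis, from 0) in each of the 12 libraries (points), with the group mean ± SD of 4 libraries to the right of each group. The libraries run from 16853 to 23156 FPKM, and each group spans most of that range.

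The large and small subunits kept a nearly constant ratio. Large-subunit genes summed to 1.48 to 1.53 times the small-subunit sum in every library, while the total differed 1.37-fold between the lowest and the highest library. The ratio was 1.505 ± 0.0156 in FMT-CON, 1.501 ± 0.0205 in FMT-DSS and 1.506 ± 0.0197 in FMT-SP (SD, n = 4). The balance between the subunits thus varied 1.03-fold across libraries.

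The members shifted as a block from library to library. Measured as the deviation of log2(FPKM + 1) from each gene's own mean over the 12 libraries, the median member was at -0.05, -0.11, 0.20 and 0.19 in FMT-CON 1 to 4. It was at -0.25, -0.06, 0.08 and 0.21 in FMT-DSS 1 to 4. It was at -0.12, -0.23, -0.03 and 0.17 in FMT-SP 1 to 4. The libraries numbered 4 and FMT-CON 3 were high, and FMT-DSS 1 and FMT-SP 2 were low.

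Nearly every member took part. In FMT-CON 3 all 76 members were above their own mean, and in FMT-DSS 1 all 76 were below it. The count above was 72 in FMT-CON 4, 73 in FMT-DSS 4 and 72 in FMT-SP 4, and it was 5 in FMT-CON 2 and 1 in FMT-SP 2. FMT-SP 4 was the highest FMT-SP library for 70 members and FMT-DSS 1 the lowest FMT-DSS library for 76. Subtracting the library's median member reduced the median SD of a member from 0.18 to 0.08 on the log2 scale and lowered it in 69 of the 76 genes. The same subtraction raised the median SD of the 12483 other tested genes from 0.20 to 0.26. It lowered that of the 217 with an annotated transcript under 700 bases from 0.24 to 0.18. The library's median member is taken from the members themselves, so part of their fall is built in. With each set's own median subtracted instead, the median SD became 0.197 in the other genes and 0.169 in the short ones.

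**Figure D2:**
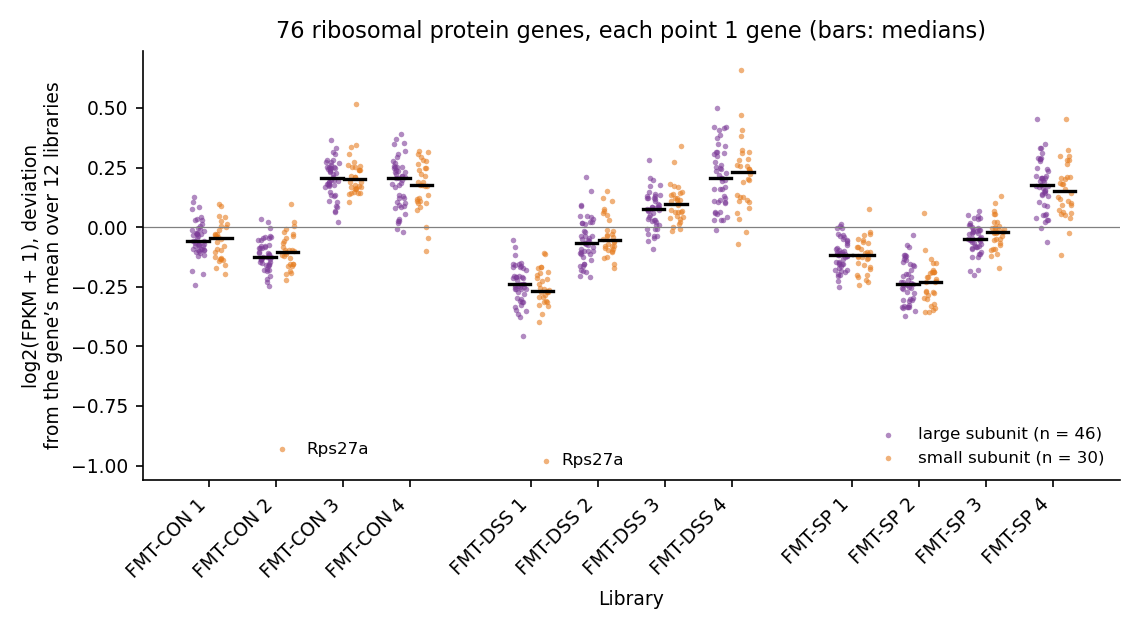
Deviation of log2(FPKM + 1) from the gene's mean over 12 libraries (vertical axis) for each ribosomal protein gene (points; large subunit purple, small subunit orange) in each library, with black bars at the subunit medians. The block of genes shifts up or down together, from medians near -0.25 in FMT-DSS 1 to about 0.2 in FMT-CON 3, and Rps27a lies far below the block in FMT-CON 2 and FMT-DSS 1.

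Rps23, a protein of the decoding site in the small subunit, followed the block most closely, with an SD of 0.04 left after the library median. It was at 491, 480, 609 and 599 FPKM in FMT-CON 1 to 4, at 422, 497, 580 and 623 FPKM in FMT-DSS 1 to 4, and at 489, 459, 507 and 596 FPKM in FMT-SP 1 to 4. Its 3 groups overlapped throughout, with their low and high libraries in the places given for the whole block. Rps10 of the small subunit, and Rpl12, at the base of the stalk, were next, with 0.04 each.

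Some members moved much more or much less than the block. The slope of a member's log2 value on the library's median member was steepest for Rps27a, at 2.38. It was 1.73 for Rpl35 and 1.598 for Rpl21, and 0.06 for Rps15a, 0.27 for Rpl3 and 0.29 for Rplp0, the scaffold of the stalk. Rpl35, a protein near the exit tunnel for the nascent chain, was at 372, 348, 507 and 510 FPKM in FMT-CON 1 to 4, at 308, 347, 370 and 525 FPKM in FMT-DSS 1 to 4, and at 342, 312, 347 and 539 FPKM in FMT-SP 1 to 4. Its high values were in FMT-CON 3 and the 3 libraries numbered 4. Rps15a was at 27.6, 27.9, 30.7 and 26.5 FPKM in FMT-CON 1 to 4, at 25.2, 31.8, 30.9 and 27.0 FPKM in FMT-DSS 1 to 4, and at 28.0, 29.6, 28.9 and 28.0 FPKM in FMT-SP 1 to 4. In FMT-CON 3 and the libraries numbered 4, where Rpl35 was high, Rps15a was at 26.5 to 30.7 FPKM, within its range elsewhere. The promoters of both, printed above, hold such runs, which was a condition for printing them. Rps28, at 230.5 to 325 FPKM, and Rpl29, at 85.1 to 144 FPKM, joined Rps27a, Rps15a, Rpl35 and Rpl3. These were the 6 members that varied most once the library median was subtracted. Over the 56 members with a promoter, the median slope was 1.05 for the 30 with a run, ranging from 0.06 to 1.73, and 1.02 for the 26 without, ranging from 0.29 to 1.49.

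Other genes of short transcripts lay near the block in many libraries, with exceptions. The 217 other genes under 700 bases had a median deviation of 0.06, -0.10, 0.20 and 0.19 in FMT-CON 1 to 4. It was -0.19, -0.17, 0.05 and 0.15 in FMT-DSS 1 to 4, and -0.12, -0.22, 0.01 and 0.12 in FMT-SP 1 to 4. They lay on the other side of 0 from the median member in FMT-CON 1 and FMT-SP 3, and further from 0 in FMT-DSS 2. The 5824 other genes of 3000 bases or more went the other way in several libraries, at -0.16 in FMT-CON 4, -0.21 in FMT-DSS 4 and -0.10 in FMT-SP 4. The 28 members under 700 bases had a median slope of 1.08, the 39 of 700 to 1500 bases 1.01 and the 7 of 1500 to 3000 bases 0.64. The part of transcript length in the shifts of the members was not tested.

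**Figure D3:**
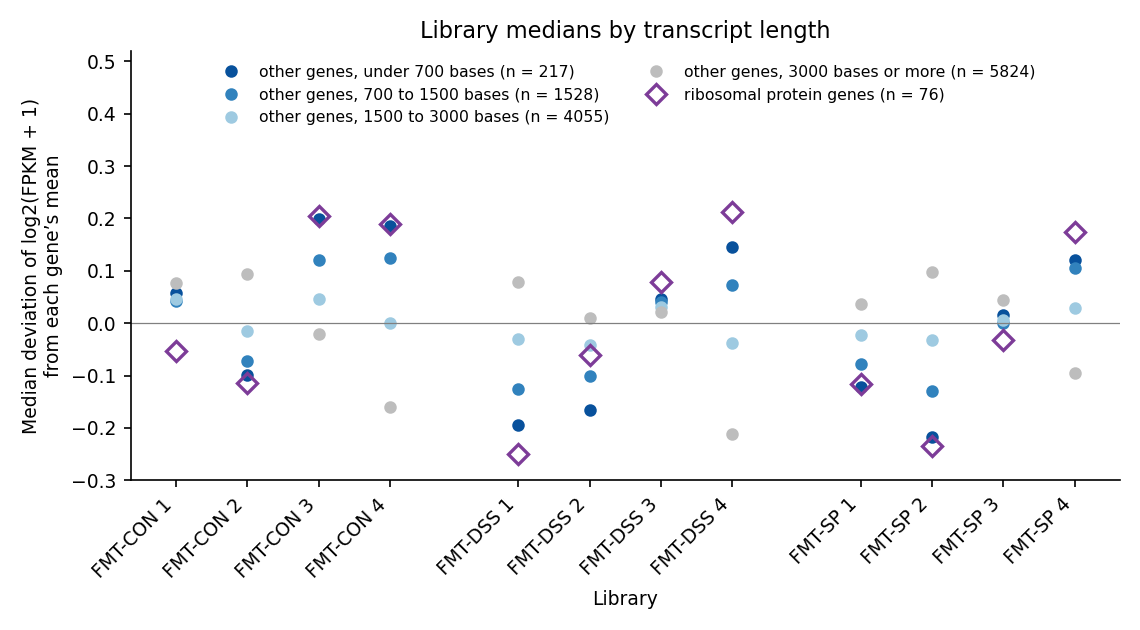
Median deviation of log2(FPKM + 1) from each gene's mean (vertical axis) in each library for the ribosomal protein genes (open diamonds, n = 76) and for other tested genes in 4 classes of annotated transcript length (filled circles, darker for shorter). The short genes, at 0.19 in FMT-CON 4 and -0.22 in FMT-SP 2, lie near the diamonds there, and the genes of 3000 bases or more lie on the other side of 0 in those libraries.

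Facts of the libraries that vary alongside are given once. Depth, estimated from the steps of low values, was 31.4 to 37.3 M (1000000) fragments. Mitochondrially encoded genes took 27.7%, 29.0% and 24.0% of FPKM in the libraries numbered 4 and 15.9% to 20.3% in the other 9, and with those genes removed the members took 5.95% to 7.82%. All 7 hippocampal neuron markers passed the filter, and their sum was 179 to 257 FPKM. The 5 choroid plexus markers summed to 29.9 to 3599 FPKM in FMT-CON, 1304 to 2920 in FMT-DSS and 18.0 to 3824 in FMT-SP. The 6 microglia markers had medians of -0.92 in FMT-DSS 2 and -0.85 in FMT-DSS 4, and of -0.10 to 0.30 in the other 10 libraries. Their means were lower in FMT-DSS than in FMT-CON for all 6, 2 with an unadjusted p under 0.05 and 0 with an adjusted p under 0.05 in limma. Summed levels ran from 46.7 to 339 FPKM for the 6 striatum markers, 9.22 to 140 FPKM for the 4 thalamus markers and 124 to 1337 FPKM for the 5 erythrocyte markers. The 3 pituitary hormone genes summed to 3531 FPKM in FMT-CON 3. They summed to 10.2, 9.63 and 17.4 FPKM in FMT-CON 1, 2 and 4, and to at most 23.7 in FMT-DSS and FMT-SP. The part of these lists in the level of the ribosomal protein genes was not tested.

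Rps27a stood apart from all other members. It encodes a small-subunit protein made as a fusion with ubiquitin, and lies on chromosome 11 (29545846 to 29548109, minus strand, GRCm38). Rps27a was at 141, 73.2, 201 and 141 FPKM in FMT-CON 1 to 4. It was at 70.7, 152, 178 and 222 FPKM in FMT-DSS 1 to 4, and at 122, 131, 154 and 193 FPKM in FMT-SP 1 to 4. FMT-CON 2 and FMT-DSS 1 lay well below the other 10 libraries, which ran from 122 to 222 FPKM.

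The highest Rps27a value was 3.14 times the lowest, where the next widest ratio of any member was 1.85 and the median ratio was 1.46. The lowest value rested on about 1844 fragments, for which counting error is 2.33%. The ubiquitin gene Ubb was at 894 and 874 FPKM in FMT-CON 2 and FMT-DSS 1, within a range of 874 to 1030 FPKM. Of the 12559 tested genes, 2 had both libraries under 0.6 of the lowest other library, Rps27a and Gm4793, a threshold set after the values of Rps27a were seen. Whether Rps27a transcripts or reads assigned to its pseudogenes differed was not tested.

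**Figure D4:**
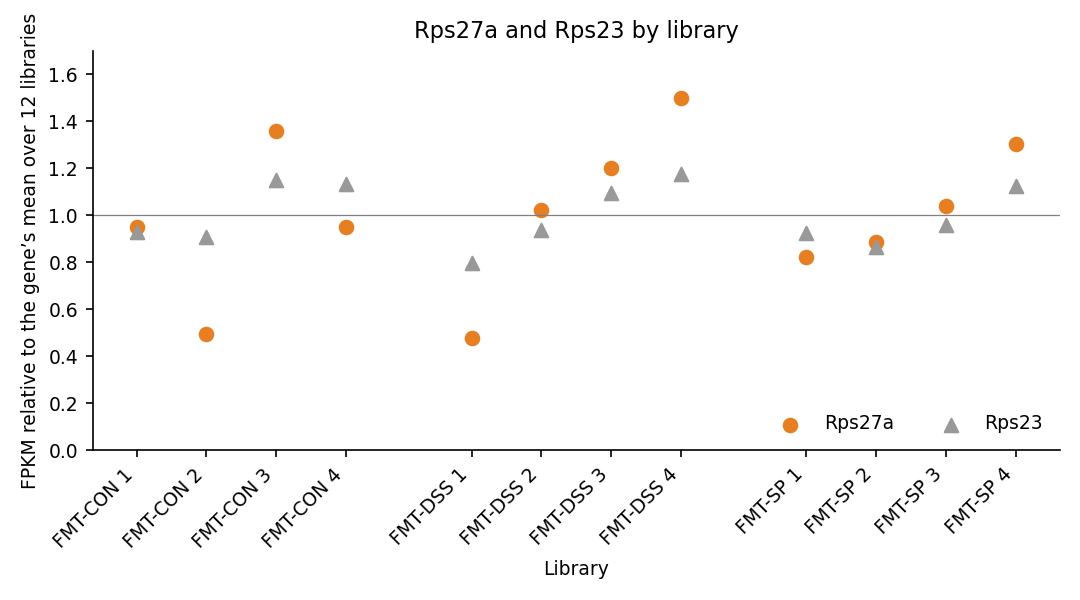
FPKM of Rps27a (circles) and Rps23 (triangles) in each library, divided by the gene's mean over 12 libraries (vertical axis, from 0). Rps27a is at 73.2 and 70.7 FPKM in FMT-CON 2 and FMT-DSS 1, where Rps23 lies much closer to its mean.

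FMT-DSS against FMT-CON asks how hippocampal RNA differed between recipients of the 2 kinds of transplant. No ribosomal protein gene passed the test: 0 of 76 passed an adjusted p of 0.05 in limma (Benjamini-Hochberg over 12559 genes, 0.0% called), 0 had an unadjusted p under 0.05 (4.06% of all tested genes did) and 0 had groups that did not overlap (1.75% of all tested genes did). Means were lower in FMT-DSS for 64 members and higher for 12, where 7496 of the 12559 tested genes had lower means. The members shift together by library, so these counts are not separate observations. The median change of the members was -0.06 on the log2(FPKM + 1) scale, beside -0.03 over all tested genes. That median was 0.03 without FMT-DSS 1, so its sign rested on 1 library. The 95% interval lay within a 1.5-fold change in either direction for 74 members and within 2-fold for all 76.

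Among the members of small p were Rpsa, Rpl3, Rpl34, Rpl39 and Rpl18. Rpsa, the laminin receptor protein of the small subunit, was at 260 ± 25.7 FPKM in FMT-CON and 232 ± 23.8 FPKM in FMT-DSS (SD, n = 4). Rpl3, at the peptidyl transferase centre, went the other way, at 415 ± 24.1 and 446 ± 46.0 FPKM (SD, n = 4). Rpl34, Rpl39 and Rpl18 had changes of -0.13, -0.16 and -0.10. None of these differences exceeded the spread between libraries by the test.

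FMT-SP against FMT-DSS asks what the addition of substance P went with. Again 0 of 76 members passed an adjusted p of 0.05 in limma (0.0% called), 0 had an unadjusted p under 0.05 (2.5% of all tested genes did) and 0 had groups that did not overlap (1.27% did). Means were lower in FMT-SP for 65 members, where 5156 of the 12559 tested genes had lower means. The median change of the members was -0.05, beside 0.03 over all tested genes. The median was 0.02 without FMT-DSS 4 and 0.01 without FMT-SP 2, so its sign too rested on single libraries. The 95% interval lay within 1.5-fold for 75 members.

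Rplp2, the partner of Rplp1 in the stalk, had the smallest p, on chromosome 7 (141447370 to 141451585, GRCm38). It was at 248, 270, 337 and 300 FPKM in FMT-DSS 1 to 4 and at 244, 236, 277 and 281 FPKM in FMT-SP 1 to 4. The 2 higher FMT-SP libraries lay inside the FMT-DSS range. The change was -0.15 ± 0.11 (SE), with an unadjusted p of 0.199 and an adjusted p of 0.999 in limma. Rps13, Rps14, Rps16 and Rpl7 had changes from -0.15 in Rps13 to -0.11 in Rps14. All 5 had lower means in FMT-SP, without passing the test.

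FMT-SP against FMT-CON sets the libraries with substance P beside the first group. It uses the same libraries as the other comparisons and is no separate evidence. None of the 76 members passed an adjusted p of 0.05 in limma (0.0% called), 0 had an unadjusted p under 0.05 (0.358% of all tested genes did) and 0 had groups that did not overlap (0.494% did). Means were lower in FMT-SP for 71 members, where 6690 of the 12559 tested genes had lower means. The 71 are not separate observations, because the members shift together by library. The median change of the members was -0.12, beside -0.01 over all tested genes. It stayed below 0 without any single library, between -0.20 and -0.06. When limma weighted the libraries by quality, 40 members had an unadjusted p under 0.05, as did 9.12% of all tested genes (1146 of 12559, against 45 with equal weights), and 0 members had an adjusted p under 0.05. The 95% interval lay within 1.5-fold for 72 members.

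Rps27, a zinc-finger protein of the small subunit, was at 296 ± 46.6 FPKM in FMT-CON and 246 ± 36.0 FPKM in FMT-SP (SD, n = 4), a change of -0.26 that did not pass the test. Rps9, Rpl39, Rpl34 and Rps16 had changes of -0.22, -0.21, -0.16 and -0.18.

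**Figure D5:**
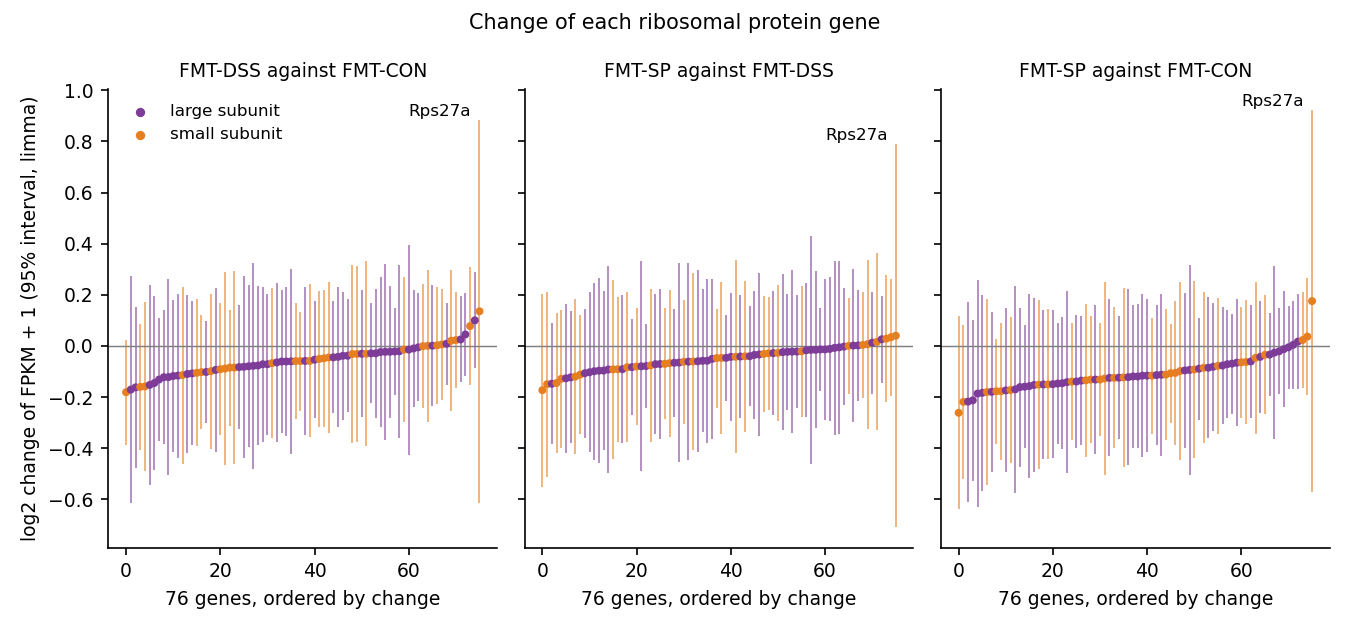
Log2 change of FPKM + 1 with its 95% interval from limma (vertical axis) for the 76 ribosomal protein genes, ordered by change, in each of the 3 comparisons (large subunit purple, small subunit orange). Most points lie slightly below 0, at medians of -0.06, -0.05 and -0.12, every interval includes 0, and Rps27a has the widest interval.

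With 12 libraries, Rps27a had changes of 0.14 in FMT-DSS against FMT-CON, 0.04 in FMT-SP against FMT-DSS and 0.18 in FMT-SP against FMT-CON, each with an SE of 0.34. Without FMT-CON 2 and FMT-DSS 1 they were 0.20, -0.30 and -0.10, so the sign turned in the last 2.

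Ribosome components outside the naming rule behaved alike in part. Fau, whose product is cleaved to a small-subunit protein, was at 151 to 234 FPKM and highest in FMT-DSS 4. Rack1, a scaffold on the small subunit, was at 113 FPKM in FMT-DSS 4 and at 127 to 154 FPKM in the other libraries, so it was lowest in a library where the members were high. Rps3a1, which the rule does not match by its symbol, was at 305 to 426 FPKM, with its highest value in FMT-CON 3. Of the paralogs, Rpl36al was at 91.5 to 142 FPKM, Rpl22l1 at 42.7 to 80.5, Rpl7l1 at 10.99 to 16.5 and Rps27l at 2.51 to 4.57, and all 4 had lower means in FMT-DSS than in FMT-CON without passing the test. Rpl3l, known from striated muscle, was at 0.12 to 0.60 FPKM, and Rpl39l, known from testis, reached 0.25 FPKM.

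The factors that build and use ribosomes differed by list. Library medians lay between -0.05 and 0.05 for the 58 biogenesis factors, between -0.10 and 0.11 for the 37 initiation factors and between -0.09 and 0.12 for the 21 genes of mTORC1 signalling. They ranged more widely for the 10 elongation factors, from -0.17 in FMT-DSS 4 to 0.14 in FMT-SP 4, and for the 15 RNA polymerase I genes, from -0.22 in FMT-DSS 2 to 0.10 in FMT-SP 4. In all 3 comparisons 0 of the 58 biogenesis factors, 37 initiation factors, 10 elongation factors, 15 RNA polymerase I genes and 21 genes of mTORC1 signalling passed an adjusted p of 0.05 in limma. In FMT-DSS against FMT-CON, 8 of these 141 genes had an unadjusted p under 0.05, beside 4.06% of all tested genes.

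Among those were Eef1g, a subunit of elongation factor 1, with a change of -0.32 ± 0.11 (SE), and Eif2s1, the alpha subunit of initiation factor 2, with -0.30 ± 0.11. Ddit4, an inhibitor of mTORC1 that is induced by stress, was at 40.01, 32.4, 47.7 and 22.4 FPKM in FMT-CON 1 to 4 and at 37.6, 71.4, 66.5 and 67.7 FPKM in FMT-DSS 1 to 4. It was higher in 3 of the 4 FMT-DSS libraries than in any FMT-CON library, with FMT-DSS 1 inside the FMT-CON range. The change was 0.76 ± 0.25 (SE), with an adjusted p of 0.966 in limma. In FMT-SP against FMT-DSS the change of Ddit4 was -0.52 ± 0.25 and that of Eif2s1 0.30 ± 0.11, neither past an adjusted p of 0.05, and the FMT-DSS libraries are shared by the 2 comparisons. The smallest p among initiation factors in FMT-SP against FMT-CON was that of Eif1, with a change of -0.17.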

How the data were processed

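Hippocampal RNA of 12 libraries was measured, and gene values are FPKM as the authors deposited them, per the file headers. HISAT2 2.0 and the build mm8 are named in the submitters' processing notes without a role. The read counter, annotation and gene lengths were not given in the sources used here. Depth was estimated from 4709 single-transcript genes of GENCODE vM21 (GRCm38), as the value that put most low values within 0.05 of a whole fragment. The share there was 39.3% to 42.5%, where chance gives 10% at a depth fixed beforehand. The depth was chosen for a high share, so that 10% is not its own chance level. This is too few for a count test. Positions and lengths came from that annotation by symbol.

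The titles of the samples gave their groups and replicate numbers. Genes whose mean reached 1 FPKM were fitted as log2(FPKM + 1) in 1 model with limma 3.58.1 (R 4.3.3), with a mean-variance trend, two-sided tests and Benjamini-Hochberg adjustment over all 12559 genes. Changes are on that scale. The model was tested on simulated data.

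The members and gene lists were chosen with earlier results of these data known. Named members are the 5 highest and 5 lowest, the 6 of smallest p per comparison (none passed the threshold), and the 6 varying most and 3 least after subtracting the library median. The rule also takes Fau, Rack1 and paralogs, and the 2 genes of smallest p per pathway list and comparison, of which a few are printed. Some genes that the rule selects are left out of the text, though counts and medians include them. Rps3a1, Ubb, Gm4793, Rplp0 and the promoters shown were chosen after values were seen. Alternatives were other pseudocounts, filters, scalings, weights and sets of libraries.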

Additional observations from a re-analysis of the deposited data

Results flagged for a closer look

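Rpl35 in FMT-SP 4 was at 539 FPKM, far above the nearest other FMT-SP library at 347 FPKM, a gap of 0.847 of the group's whole range. It was the only case among 114 groups of 4 libraries examined for single libraries that stand apart (30 members, 7 related genes and the summed level, in each group), where chance gives about 1 in 20, or 5.7 groups. Rpl35 was also at 507, 510 and 525 FPKM in FMT-CON 3, FMT-CON 4 and FMT-DSS 4.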

How the results depend on the processing

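No alternative gave a member past an adjusted p of 0.05 in limma. The number of members with a higher mean depended on the scaling and on single libraries. In FMT-DSS against FMT-CON it was 12, and 31 with median-of-ratios rescaling, 20 with quantile normalization, 1 with array weights, 2 without FMT-DSS 2 and FMT-DSS 4, 7 without the libraries numbered 4, 27 without FMT-CON 2 and FMT-DSS 1, and 5 to 50 leaving out 1 library. In FMT-SP against FMT-DSS it was 11, and 2 with median-of-ratios rescaling, 22 with quantile normalization, 29 rescaled to a fixed total, 58 without FMT-DSS 2 and FMT-DSS 4, 7 without the libraries numbered 4, 1 without FMT-CON 2 and FMT-DSS 1, and 1 to 48 leaving out 1 library. In FMT-SP against FMT-CON it was 5, and 11 with quantile normalization, 13 rescaled to a fixed total, 9 with mitochondrially encoded genes removed, 0 with array weights, 3 without the libraries numbered 4, 2 without FMT-CON 2 and FMT-DSS 1, and 2 to 11 leaving out 1 library. The cause was not tested. The median change of the members stayed below 0 in the 3 comparisons under all 4 rescalings. With array weights 40 members had an unadjusted p under 0.05 in FMT-SP against FMT-CON, at a median change of -0.22, among 1146 of 12559 tested genes (9.12%). FMT-DSS 2 and FMT-DSS 4, left out together above, are the libraries low in microglia markers. Without FMT-DSS 2 and FMT-DSS 4, Rps13 turned to 0.0023 in FMT-SP against FMT-DSS.

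Rps27a changed sign most often. In FMT-DSS against FMT-CON it was -0.27 with array weights, -0.14 without FMT-CON 2, -0.07 without FMT-DSS 4, -0.22 without FMT-DSS 2 and FMT-DSS 4, -0.0382 without the libraries numbered 4, and at most 0.47 without FMT-DSS 1. In FMT-SP against FMT-DSS it was -0.30 without FMT-DSS 1 (with or without FMT-CON 2), -0.09 without FMT-SP 4 and at most 0.25 without FMT-DSS 4. In FMT-SP against FMT-CON it was -0.16 with array weights and -0.10 without FMT-CON 2 (with or without FMT-DSS 1), and at most 0.38 without FMT-CON 3. The set without FMT-CON 2 and FMT-DSS 1 was chosen after seeing the data.

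The main model had no replicate block. Of 12 same-numbered pairs, 9 correlated above 0.1, and 7 of the 12 libraries correlated best with their own number. The libraries numbered 4 correlated at 0.72 (FMT-CON and FMT-DSS), 0.84 (FMT-CON and FMT-SP) and 0.69 (FMT-DSS and FMT-SP). The other same-numbered pairs ran from -0.45 to 0.53. Differently numbered pairs ran from -0.75 (FMT-CON 2 and FMT-SP 4) to 0.68 (FMT-CON 1 and FMT-SP 3). Whether equal replicate numbers mark a pairing or a shared batch was not tested. With the replicate block in limma, 2, 1 and 9 members had an unadjusted p under 0.05 in the order given above. They were among 1274, 885 and 310 tested genes, against 510, 314 and 45 tested genes without the block. With it, 0 members passed an adjusted p of 0.05, and 12, 11 and 5 had higher means. Counting error of a member's lowest value was 0.729% to 3.46%, below the spread between libraries.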
